A study of Mus musculus with 10 samples.

Results

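Otx2 and Gbx2 are homeobox transcription factors, described here across mouse embryonic stem cells that lack different isoforms of Mbd3. The rule took the rows with the symbol Otx2 or Gbx2 in every deposited table that lists them, and each symbol matched 1 gene, 2 of the 8694 genes listed in at least 1 table. Nearly all rows are of genes that the authors called (adjusted p under 0.05), as are all rows of these 2 genes. The pair was selected on the direction of its deposited fold changes against wild type, up for Otx2 and down for Gbx2. The authors' fold changes and adjusted p-values are therefore given as a description and support nothing.

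The 5 groups, of 2 libraries each, were RNA-seq of ribosomal RNA-depleted total RNA from E14 cells on gelatin: unmutated E14 (E14 WT), Mbd3abc KO, Mbd3cΔN-ab KO, Mbd3ab KO and Mbd3c KO. Mbd3 belongs to NuRD, a complex that couples the moving of nucleosomes to the removal of acetyl groups from histones, and a, b and c are its isoforms. All 4 mutant lines derive from E14 and were made with CRISPR/Cas9, with the mutation of Mbd3 in exon 5 for Mbd3abc KO, in intron 2 for Mbd3c KO and in exon 2 for the other two. One pair of wild type libraries served all 4 comparisons, which ask what each isoform contributes. The labels call the pairs of libraries biological replicates and do not say whether a mutant was 1 clone or more, so p-values measure the spread between these libraries only.

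Otx2 is the paired-type homeobox factor of the forebrain and midbrain, and in pluripotent cells it helps move them from the naive to the formative (epiblast-like) state. Gbx2 is the homeobox factor of the anterior hindbrain, and in mouse embryonic stem cells it is a target of LIF and Stat3 signalling that favours self-renewal. In the neural plate the 2 factors repress each other, and the border between their domains places the midbrain-hindbrain organizer, where Fgf8 and its relatives are made.

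Both genes lie on the minus strand (mm10). The deposited Otx2 row is the RefSeq transcript NM_001286481 at chr14:48657677-48667644, with a deposited exon length of 2326 bases. The GENCODE transcript matched to it has 5 exons, and GENCODE gives the gene 11 transcripts. The Gbx2 row is NM_010262 at chr1:89927962-89931176, with a deposited length of 2122 bases. Its matched GENCODE transcript has 2 exons, and the gene has 2 GENCODE transcripts. Each has an antisense neighbour in the annotation. Per the file headers reads were counted by strand, so reads of the other strand were not added. The bases just before each annotated start are shown because the 2 genes moved in opposite directions and their start regions differ in base composition. They are RefSeq sequences on GRCm38.p6, minus strand, 5′ to 3′, with capitals marking TAATTA, a core that homeodomain proteins bind. The first covers chr14:48667645-48667894 inside an intron of a longer Otx2 transcript. The second covers chr1:89931180-89931426, leaves out the 3 bases that GENCODE places in the Gbx2 UTR, and overlaps an exon of the antisense transcript D130058E05Rik.
Otx2: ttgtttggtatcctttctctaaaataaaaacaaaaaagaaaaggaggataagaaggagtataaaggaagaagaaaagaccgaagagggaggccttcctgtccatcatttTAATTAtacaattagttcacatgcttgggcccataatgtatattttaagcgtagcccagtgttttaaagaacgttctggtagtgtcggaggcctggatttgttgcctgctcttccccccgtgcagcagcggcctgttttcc
Gbx2: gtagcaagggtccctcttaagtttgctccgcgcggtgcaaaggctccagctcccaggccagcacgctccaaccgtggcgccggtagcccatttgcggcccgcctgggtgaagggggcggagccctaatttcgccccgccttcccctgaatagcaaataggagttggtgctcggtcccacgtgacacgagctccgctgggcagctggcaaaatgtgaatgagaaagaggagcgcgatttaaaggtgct

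The 250 bases before the Otx2 start held 42% G and C and 6 CpG sites, and those before the Gbx2 start 61.6% and 18 CpG sites. The Otx2 window held 1 TAATTA, which ended 136 bases before the start. Windows of 250 bases were searched on both strands for TAATTA, for TAATCC (the core that Otx proteins bind) and for TTCNNNGAA (the core that Stat proteins bind). The matches found do not overlap each other. Of 32841 RefSeq windows, 4.84% held TAATTA, 6.25% TAATCC and 7.02% TTCNNNGAA. The Gbx2 window held none of the 3, which says only that these letters are not in it. Otx2 has 3 other annotated starts in RefSeq, and the window before the one at position 48665109 held 3 TAATTA, 1 TAATCC and 1 TTCNNNGAA. It lies within the UTR of another Otx2 transcript, so 18 bases around each homeodomain core are shown, at chr14:48665332-48665349, 48665309-48665326, 48665272-48665289 and 48665252-48665269 in that order. At least 3 TAATTA occurred in 0.0487% of windows. That share takes no account of the choice of this window, among the annotated Otx2 starts, for its matches.
Otx2 TAATTA at 234: ggcctgTAATTAagggac
Otx2 TAATCC at 211, read on the other strand: cccctcGGATTAtctcgt
Otx2 TAATTA at 174: ttattaTAATTAattctc
Otx2 TAATTA at 154: acgaggTAATTAttattg

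Per library depth ran from 0.71 to 1.59 times that of the first wild type library in the tables that list the members. Exon reads over the listed genes were 5734989 to 9027663 in the Mbd3abc KO table. Levels are reads divided by the size factor of the library, called normalized reads, and because each table was scaled separately they compare within a table only. As a check of the labels, Mbd3 itself was listed as lower in these 3 tables, at 506 and 638 normalized reads in Mbd3ab KO, 108 and 158 in Mbd3abc KO and 300 and 292 in Mbd3cΔN-ab KO, against 1468 to 1775 in wild type over the 3 tables.

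Otx2 was listed as higher in 3 of the 4 mutants. In the Mbd3abc KO table it stood at 259 and 276 normalized reads in wild type and at 1190 and 1290 in the mutant. In the Mbd3cΔN-ab KO table the wild type libraries had 246 and 263 and the mutant libraries 1061 and 863. In the Mbd3ab KO table the wild type libraries had 222 and 239.5 and the mutant libraries 491 and 682. In each table both mutant libraries were above both wild type libraries, and the mutant pair of Mbd3abc KO lay closest together. The share of all listed genes whose libraries separate in this way was not computed, so the separation is a description only.

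The means were 267 ± 12.0 and 1240 ± 70.7 normalized reads (SD, n = 2) in the Mbd3abc KO table, a 4.64-fold difference. They were 255 ± 12.7 and 962 ± 140 (SD, n = 2) for Mbd3cΔN-ab KO, 3.78-fold, and 231 ± 12.4 and 586 ± 135 (SD, n = 2) for Mbd3ab KO, 2.54-fold. From the lowest mutant over the highest wild type library to the reverse, the fold ran from 4.32 to 4.98, 3.28 to 4.32 and 2.05 to 3.07 in the same order. The authors' deposited table gave Otx2 a log2 fold change of 2.19 ± 0.14 (SE, DESeq2 adjusted p 1.06e-50) in Mbd3abc KO. Its deposited values were 1.85 ± 0.19 (adjusted p 7.89e-21) in Mbd3cΔN-ab KO and 1.22 ± 0.24 (adjusted p 0.000135) in Mbd3ab KO. The share of genes tested that the authors called higher was 27.1%, 21.1% and 2.05% in those 3 comparisons, so a call as such was common in the first pair and rare in Mbd3ab KO. By size of the deposited log2 fold change, Otx2 ranked 718 of 4240, 331 of 3051 and 140 of 271 among the genes called higher. It so stood within the upper part of the list in the first pair and near the middle in Mbd3ab KO. The call in Mbd3ab KO did not hold with edgeR on the recovered reads (adjusted p 0.193) or with limma (adjusted p 0.103), nor without either wild type library.

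**Figure D1:**
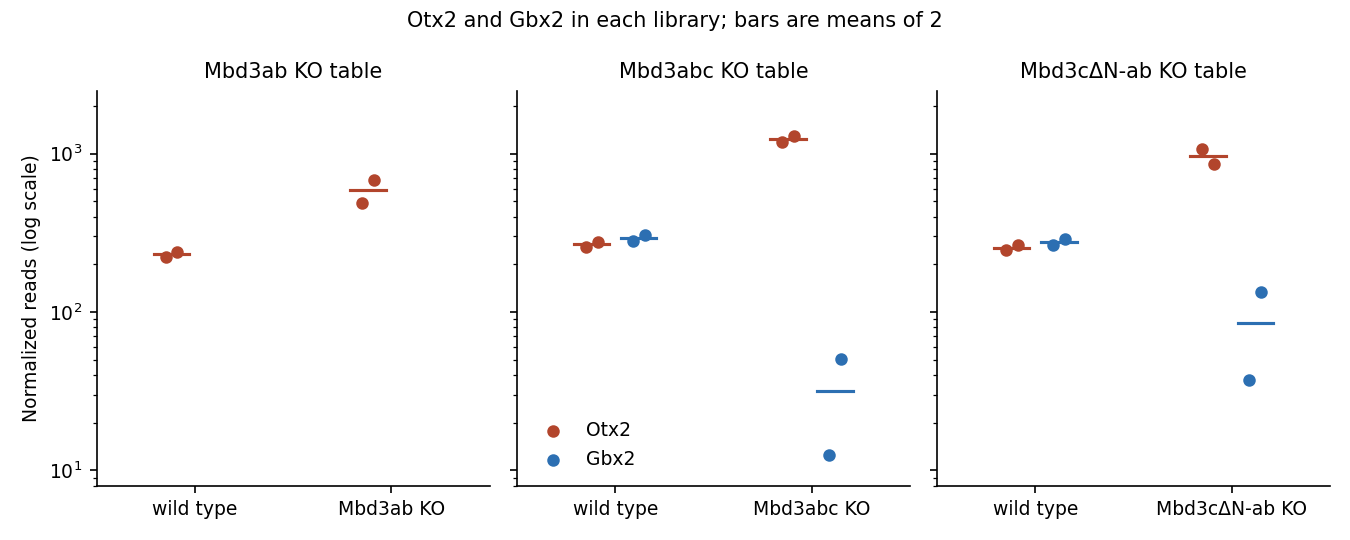
Normalized reads (log scale) of Otx2 and Gbx2 in each library of the 3 tables that list Otx2, with bars at the mean of 2 libraries; Gbx2 is not listed in the Mbd3ab KO table. Otx2 sits between 491 and 1290 in the mutants and Gbx2 between 12.6 and 133.

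Gbx2 was lower in Mbd3abc KO and in Mbd3cΔN-ab KO. In the Mbd3abc KO table it stood at 279 and 304 normalized reads in wild type and at 12.6 and 50.6 in the mutant. In the Mbd3cΔN-ab KO table the wild type libraries had 265 and 291 and the mutant libraries 37.3 and 133. Both mutant libraries were below both wild type libraries in each table, but the mutant libraries of a pair were far apart. As for Otx2, the share of all listed genes that separate in this way was not computed.

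The means were 292 ± 17.6 and 31.6 ± 26.9 normalized reads (SD, n = 2) in the Mbd3abc KO table, a 9.24-fold difference with single-library folds from 5.52 to 24.2. In the Mbd3cΔN-ab KO table they were 278 ± 18.1 and 85.1 ± 67.6 (SD, n = 2), 3.26-fold, with single-library folds from 1.99 to 7.80. The authors' deposited table gave Gbx2 a log2 fold change of -2.63 ± 0.54 (SE, DESeq2 adjusted p 3.94e-06) in Mbd3abc KO. The deposited value in Mbd3cΔN-ab KO was -1.29 ± 0.46 (adjusted p 0.0146). Of the genes tested, 24.9% and 20.4% were called lower in these comparisons. By size of the deposited log2 fold change Gbx2 ranked 88 of 3892 and 371 of 2938 among the genes called lower. Those deposited values are nearer no change than the folds of the means. Its rank was thus nearer the extreme than that of Otx2 in Mbd3abc KO, while in Mbd3cΔN-ab KO both stood at a like place. Without either wild type library the Gbx2 call in Mbd3cΔN-ab KO was lost in a DESeq2 refit (adjusted p 0.0771 and 0.114).

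The spread of Gbx2 between mutant libraries was larger than counting error. The Mbd3abc KO libraries held 13 and 53 Gbx2 reads, with exact Poisson 95% intervals of 6.92 to 22.2 and 39.7 to 69.3. The Mbd3cΔN-ab KO libraries held 31 and 157, with intervals of 21.1 to 44.0 and 133 to 184; these intervals cover counting error only. Between libraries the higher level was 4.02 and 3.57 times the lower in the mutants, but 1.09 and 1.10 times in wild type. On the log2 scale the mutant libraries of Gbx2 differed by 1.93 and by 1.81, in the order Mbd3abc KO, Mbd3cΔN-ab KO. That was more than in 99.7% of the 3517 and 99.6% of the 2757 genes called lower and compared this way. For Otx2 the same differences were 0.12 and -0.30, and 0.47 in Mbd3ab KO. Among the genes called lower, the library that was low for Gbx2 was also the lower one for 66.1% in Mbd3abc KO and 63.4% in Mbd3cΔN-ab KO. The part of a library-wide difference in the Gbx2 spread was not tested.

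Neither gene is listed in the Mbd3c KO table, where 0.352% of genes tested were called, and Gbx2 is not listed in the Mbd3ab KO table, where 3.35% were called. No value of Gbx2 in Mbd3ab KO or of either gene in Mbd3c KO was analysed here, and a gene missing from a table of called genes is not shown to be unchanged. Over the 2 genes and 4 mutants, 5 of the 8 pairs of gene and mutant had a deposited call, which the choice of the pair fixes in part.

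Per deposited length of transcript the 2 genes were near each other in wild type and far apart in the mutants. In the Mbd3abc KO table Otx2 had 115 normalized reads per kb in wild type and 533 in the mutant, and Gbx2 had 138 and 14.9. In the Mbd3cΔN-ab KO table the Otx2 levels were 109 and 414 per kb and the Gbx2 levels 131 and 40.1. Within a library the ratio of the 2 genes needs no scaling between libraries. The ratio of Otx2 to Gbx2 reads per length was 0.845 and 0.827 in the wild type libraries, 86.4 and 23.3 in Mbd3abc KO and 26.0 and 5.92 in Mbd3cΔN-ab KO. Gbx2 was thus lower than Otx2 in the 4 mutant libraries. In wild type which of the pair was higher depended on the transcript lengths: with those of the matched GENCODE transcripts, 1708 bases for Otx2 and 2135 for Gbx2, the wild type ratios were 1.16 and 1.13. The ranges of the mutants overlapped each other.

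**Figure D2:**
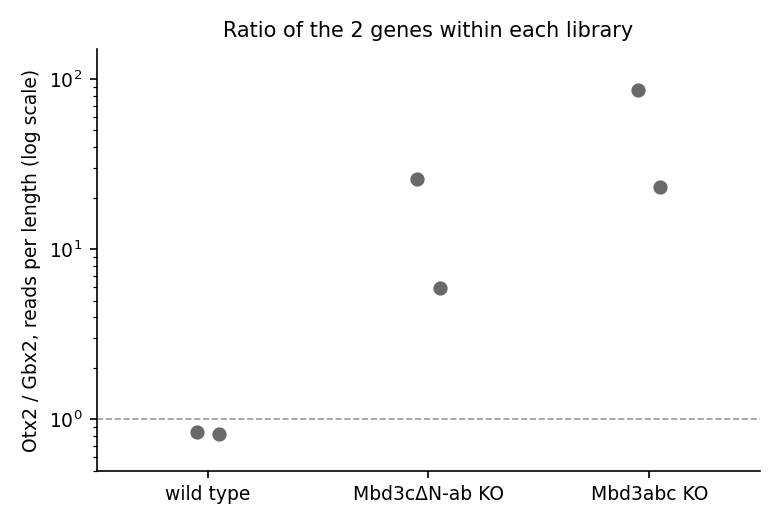
Ratio of Otx2 to Gbx2 reads per transcript length within each library (log scale), 2 libraries per group; the dashed line marks equal levels. With the deposited lengths used here the wild type libraries lie at 0.845 and 0.827, close to the line, and the 4 mutant libraries between 5.92 and 86.4.

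The size of the change was compared between mutants directly. Over the 5449 genes listed in both tables, limma called 4.75% different between Mbd3abc KO and Mbd3cΔN-ab KO at a Benjamini-Hochberg adjusted p under 0.05. Otx2 differed by 0.26 ± 0.16 on the log2(normalized reads + 1) scale (SE; 95% interval -0.11 to 0.62; limma adjusted p 0.294). Gbx2 differed by -1.55 ± 0.69 (95% interval -3.14 to 0.047; limma adjusted p 0.169), lower in Mbd3abc KO. Neither passed the threshold, and the Gbx2 interval is wide and reaches just past 0, so the 2 mutants are not shown to be alike in Gbx2. Without the first Mbd3abc KO library, which holds 13 Gbx2 reads, the Gbx2 difference was -0.63 (limma adjusted p 0.582), and without the second -2.56 (adjusted p 0.0505). Without the first Mbd3cΔN-ab KO library it was -2.46 (adjusted p 0.109), and without the second -0.69 (adjusted p 0.565).

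For Otx2 the weaker mutant could be compared too, over the 333 genes listed in 3 tables, with levels tied on the shared wild type libraries. Otx2 was higher in Mbd3abc KO than in Mbd3ab KO by 0.89 ± 0.24 on the log2 scale (SE; 95% interval 0.35 to 1.42; limma adjusted p 0.0235), where 31.8% of those genes were called. Both Mbd3abc KO libraries were above both Mbd3ab KO libraries, a separation that was not counted over the other genes. The call was lost without either wild type library (adjusted p 0.0568 and 0.0567), without either Mbd3abc KO library (0.0697 and 0.0659) and without the first Mbd3ab KO library (0.104). Between Mbd3cΔN-ab KO and Mbd3ab KO the Otx2 difference was 0.58 ± 0.24 (95% interval 0.045 to 1.12; limma adjusted p 0.313), where 0.601% of the genes were called. The order of Otx2 was therefore wild type, Mbd3ab KO, Mbd3cΔN-ab KO and Mbd3abc KO, and neighbouring mutants in that order did not differ at the threshold.

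The genes whose pattern was most like each member were found by the Euclidean distance of log2 levels relative to wild type. For Otx2 this ran over 12 columns of 3 tables, the same 2 wild type libraries entering once per table, and 278 genes listed in all 3 with a mean of at least 50 normalized reads. The nearest were Fam81a (distance 0.67), Kcnk6 (a potassium channel subunit, 0.68), Ptges (prostaglandin E synthase, 0.69), Map7d2 (a microtubule-associated protein, 0.71) and Mapt (the microtubule-associated protein tau, 0.83), against a median distance of 2.99. Mapt, the most abundant of these, had 219 and 182 normalized reads in wild type and 832 and 907 in Mbd3abc KO. In Mbd3cΔN-ab KO it had 658 and 728, and in Mbd3ab KO 560 and 554. Mapt thus rose by 3.22-fold in Mbd3ab KO, more than Otx2 did, and by 4.34-fold in Mbd3abc KO, less than Otx2 did.

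For Gbx2 the search ran over 8 columns of 2 tables and 4961 genes. The nearest were Dtx1 (a Deltex E3 ubiquitin ligase of the Notch pathway, distance 0.41), Ntn1 (the secreted guidance cue netrin 1, 0.61), Tdrd12 (a Tudor domain protein of the piRNA pathway, 0.74), Slc1a4 (a neutral amino acid transporter, 0.86) and Lfng (a glycosyltransferase that modifies Notch, 0.95), against a median of 5.25. Dtx1 had 691 and 683 normalized reads in wild type and 36.7 and 126 in Mbd3abc KO. In the Mbd3cΔN-ab KO table its wild type libraries had 656 and 652 and its mutant libraries 99.9 and 265. The 5 genes were low in the same mutant library of each pair as Gbx2. They were found by this likeness, so the shared difference between libraries is a description and no test.

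**Figure D3:**
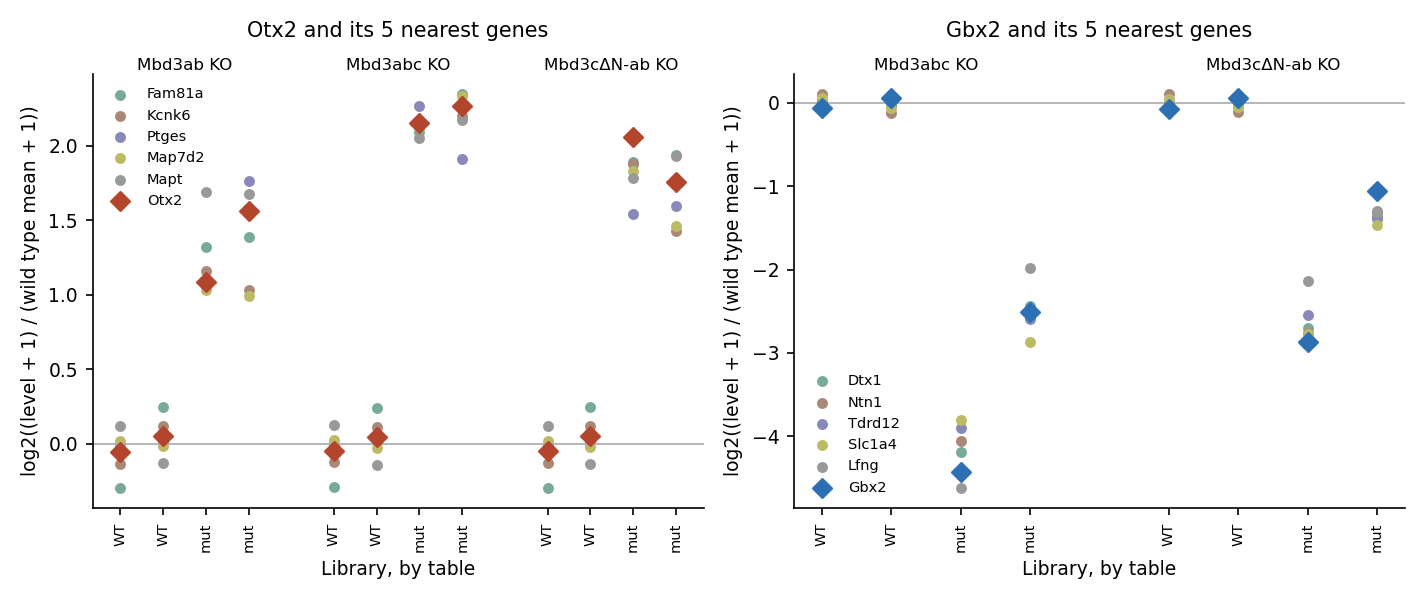
Log2 of level plus 1 over the wild type mean plus 1 for Otx2 (left, 3 tables) and Gbx2 (right, 2 tables) with the 5 nearest genes of each, by library (WT, wild type; mut, mutant). The Gbx2 group is lower in the first than in the second mutant library of both tables, as for Dtx1 at 36.7 and 126 normalized reads in Mbd3abc KO.

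The genes that Otx2 and Gbx2 act with were followed through 7 lists of 122 genes in all. Called members numbered 0 higher and 6 lower in Mbd3ab KO, 7 higher and 37 lower in Mbd3abc KO and 6 higher and 27 lower in Mbd3cΔN-ab KO. In the same order 4.92%, 36.1% and 27.0% of the list genes were called, beside 3.35% (1.3% lower), 52.1% and 41.5% of all genes tested. The median deposited log2 fold change of the called list members was -1.27, -1.12 and -0.74, beside 0.88, 0.46 and 0.37 over all called genes. In none of these 7 lists did more called members rise than fall in any of the 3 mutants, so Otx2 moved against the larger count of each list that had called members.

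Of the 26 genes of the midbrain-hindbrain boundary, 1 was called higher and 6 lower in Mbd3abc KO, and 1 higher and 2 lower in Mbd3cΔN-ab KO. These were 26.9% and 11.5% of the list, smaller shares than over all genes tested. Of all genes tested, 27.1% were called higher and 24.9% lower in Mbd3abc KO, and 21.1% and 20.4% in Mbd3cΔN-ab KO. Fgf17, an Fgf8-family ligand of the organizer, fell in all 3 mutants that list it. It had 444 and 364 normalized reads in wild type and 7.73 and 28.6 in Mbd3abc KO, 22.2-fold lower. In Mbd3cΔN-ab KO the Fgf17 levels were 6.02 and 71.1 against 421 and 348, 9.97-fold lower, and in Mbd3ab KO 16.3 and 114 against 381 and 316, 5.33-fold lower. Fgf17 therefore moved with Gbx2, and its mutant libraries were also far apart, with the first the lower in each table. En2, an engrailed homeobox factor of the boundary, had 64.4 and 63.6 in wild type and 12.6 and 19.1 in Mbd3abc KO, 4.04-fold lower, and was 2.36-fold lower in Mbd3cΔN-ab KO. Fgf18, Spry2, Spry4 and Hes3 were called lower in Mbd3abc KO only, and the difference from the other mutants was not tested for them. Hes3 had only 6.44 and 3.26 normalized reads in wild type and no read in Mbd3abc KO.

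Among 16 anterior patterning genes, 3 were called lower in Mbd3abc KO (Lefty1, Shisa2 and Rax) and 1, Lefty1, in Mbd3cΔN-ab KO. These were 18.8% and 6.25% of the list. Rax rests on few reads, with 11.6 and 5.71 normalized reads in wild type and 0.97 and 0.95 in Mbd3abc KO. Lefty1, a secreted Nodal antagonist, had 1308 and 1314 normalized reads in wild type and 158 and 247 in Mbd3abc KO, 6.48-fold lower, and was 3.01-fold lower in Mbd3cΔN-ab KO and 2.41-fold lower in Mbd3ab KO. Among 18 posterior patterning genes, 3 were called lower in Mbd3abc KO and 2 in Mbd3cΔN-ab KO, 16.7% and 11.1% of the list. The shares of the anterior and posterior lists were below the 24.9% and 20.4% of all genes tested that were called lower. Sp5, a target of Wnt signalling, had 29.6 and 18.8 in wild type and no read in either Mbd3abc KO library. Evx1, another posterior gene called lower there, had only 5.15 and 5.71 in wild type and no read in the mutant. Neither list, anterior like Otx2 nor posterior like Gbx2, had a member called higher. Of 10 relatives of the 2 genes, Dmbx1 was the 1 listed (10% of the list), lower in Mbd3abc KO at 2.90 and 2.86 against 27.0 and 14.7. Of 6 Groucho co-repressors, through which homeobox factors of both families can repress, Tle6 was called lower in Mbd3abc KO, Tle1 and Tle6 in Mbd3cΔN-ab KO and Tle4 in Mbd3ab KO. These were 16.7%, 33.3% and 16.7% of that list. In the same order 24.9%, 20.4% and 1.3% of all genes tested were called lower. With 6 genes such shares rest on 1 or 2 calls.

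Of the formative genes, the state that Otx2 promotes, most called members were lower. In Mbd3abc KO 44% of the list was called, a smaller share than over all genes tested (27.1% higher and 24.9% lower). In Mbd3cΔN-ab KO 48% was called, beside 41.5% of all genes tested. Of the 25 genes, 1 was called higher and 10 lower in Mbd3abc KO, 1 higher and 11 lower in Mbd3cΔN-ab KO, and Lef1 alone, lower, in Mbd3ab KO. Pou3f1, a POU factor of the epiblast, had 92.7 and 86.5 normalized reads in wild type and 17.4 and 37.2 in Mbd3abc KO, 3.28-fold lower. Dnmt3b, a de novo DNA methyltransferase, was 2.37-fold lower in Mbd3abc KO and 2.01-fold lower in Mbd3cΔN-ab KO. Of the 21 genes of the naive state and of LIF signalling, the group to which Gbx2 belongs, 5 were called higher and 13 lower in Mbd3abc KO, and 4 higher and 9 lower in Mbd3cΔN-ab KO. These were 85.7% and 61.9% of that list, larger shares than over all genes tested. Klf4 rose 1.95-fold and 1.35-fold and Tbx3 2.77-fold and 2.02-fold, in Mbd3abc KO and Mbd3cΔN-ab KO, both factors of the naive state. The others called higher were Klf5 and Lifr in both mutants and Jak1 in Mbd3abc KO. Other naive factors were called lower in both mutants, such as Klf2 (2.66-fold and 2.27-fold), Esrrb (1.89-fold and 1.57-fold), Nr0b1 and Dppa3. The LIF target Socs3, the transducer Stat3 itself and the kinase Pim1 were called lower in both, with deposited log2 fold changes of -0.58, -0.64 and -1.45 in Mbd3abc KO. Both lists had called members in both directions in the 2 strong mutants, most of them lower, as Gbx2 was.

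**Figure D4:**
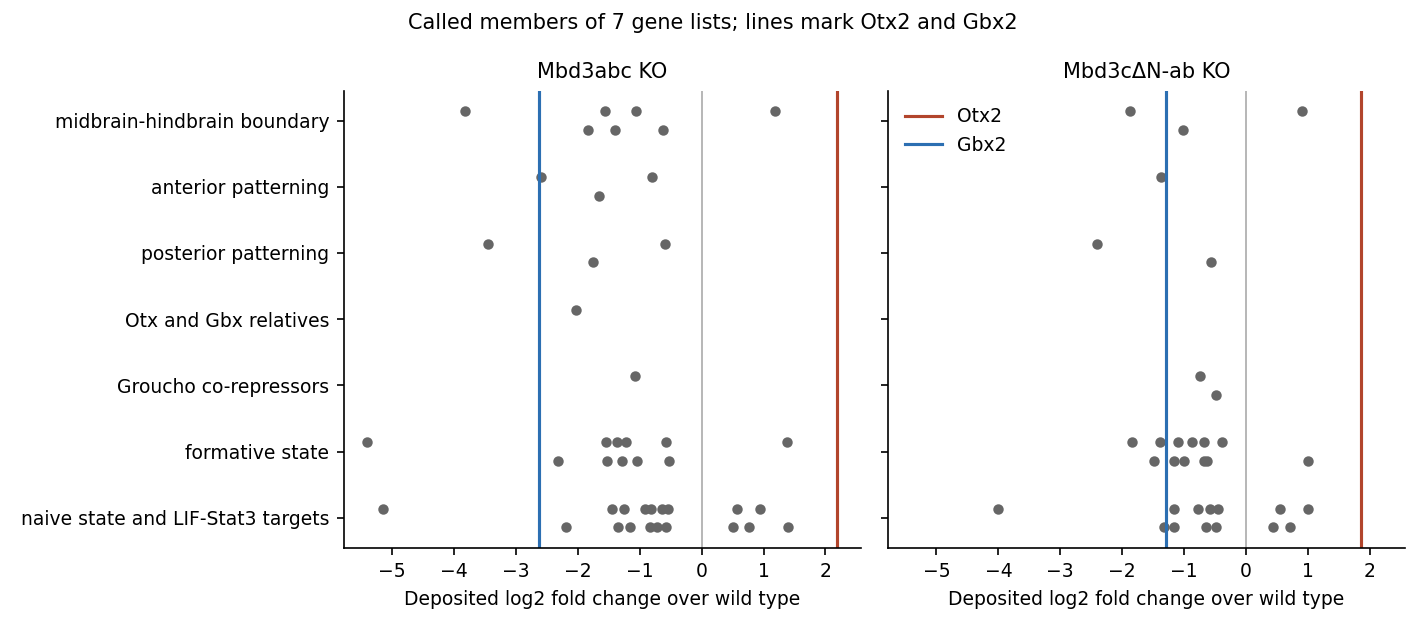
Deposited log2 fold change over wild type of the called members of 7 gene lists in Mbd3abc KO (left) and Mbd3cΔN-ab KO (right), each point a gene, with lines at Otx2 and Gbx2. Most points lie on the Gbx2 side of 0, 37 of 44 in the left panel and 27 of 33 in the right.

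Markers of embryonic stem cells and of cell types they can turn into were set beside these values. Of 9 embryonic stem cell markers, 4 were called in Mbd3abc KO (44.4%, beside 52.1% of all genes tested), 2 higher and 2 lower, and their summed level was 26935 to 27929 in wild type and 17217 to 22234 in the mutant. Pou5f1, the POU factor of pluripotency, was 3.02-fold lower in Mbd3abc KO and 2.04-fold lower in Mbd3cΔN-ab KO. Sox2, its SOX partner, and Tdgf1, a Nodal co-receptor, were the 2 called higher in Mbd3abc KO, 1.40-fold and 1.31-fold. Of 10 markers of neuroectoderm, a tissue that also makes Otx2, 4 (40%) were called in each of these mutants, all lower, beside 52.1% and 41.5% of all genes tested. Their summed level was 2285 to 2366 in wild type and 893 to 1204 in Mbd3abc KO, where Pax6 had no read in either library, and 2169 to 2261 against 1036 to 1039 in the Mbd3cΔN-ab KO table. Of 7 trophectoderm markers, 3 (42.9%) were called in Mbd3abc KO, all higher, and their summed level was 266 to 325 in wild type and 951 to 1708 in the mutant. In Mbd3cΔN-ab KO 3 (42.9%) were called, Eomes and Krt8 higher and Tfap2c lower. Their sum was 1256 to 1286 in wild type and 811 to 888 in the mutant. In Mbd3ab KO 4 (57.1%, beside 3.35% of all genes tested) were called, with Krt18 also higher, and the sums were 1254 to 1261 and 1114 to 1186. A sum covers only the markers called in its own comparison, so these sums do not compare between mutants. Tfap2c, not called in Mbd3abc KO, made up most of the wild type sum in the other 2. It had 1135 and 1076 normalized reads in wild type beside Mbd3cΔN-ab KO. Eomes and Krt8 were called higher in all 3 mutants. Of 8 primitive endoderm, 6 mesoderm and 5 fibroblast markers, at most 2 of each were called in any mutant. In bulk RNA fewer cells of a type and less RNA per cell cannot be told apart, and the part of these shifts in the Otx2 and Gbx2 levels was not tested.

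Base composition moved with the direction of change in both strong mutants, and Otx2 and Gbx2 lie in different parts of that relation. The matched Gbx2 transcript has 59.4% G and C and falls in class 19 of 20 classes of called genes by rising content, in which 91.4% of genes were lower in Mbd3abc KO and 95.0% in Mbd3cΔN-ab KO. The median deposited log2 fold change of that class was -1.11 and -0.87, and Gbx2 ranked 6 of its 405 and 32 of its 299 genes by how far it was lower. The matched Otx2 transcript has 48.2% and falls in class 9 of 20, in which 63.2% and 67.6% of genes were higher, with medians of 0.62 and 0.57. Otx2 ranked 21 of 405 and 9 of 299 by how far it was higher. Both members thus changed in the direction of most genes of their class and by more than the class median, and the part of base composition in their values was not tested.

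**Figure D5:**
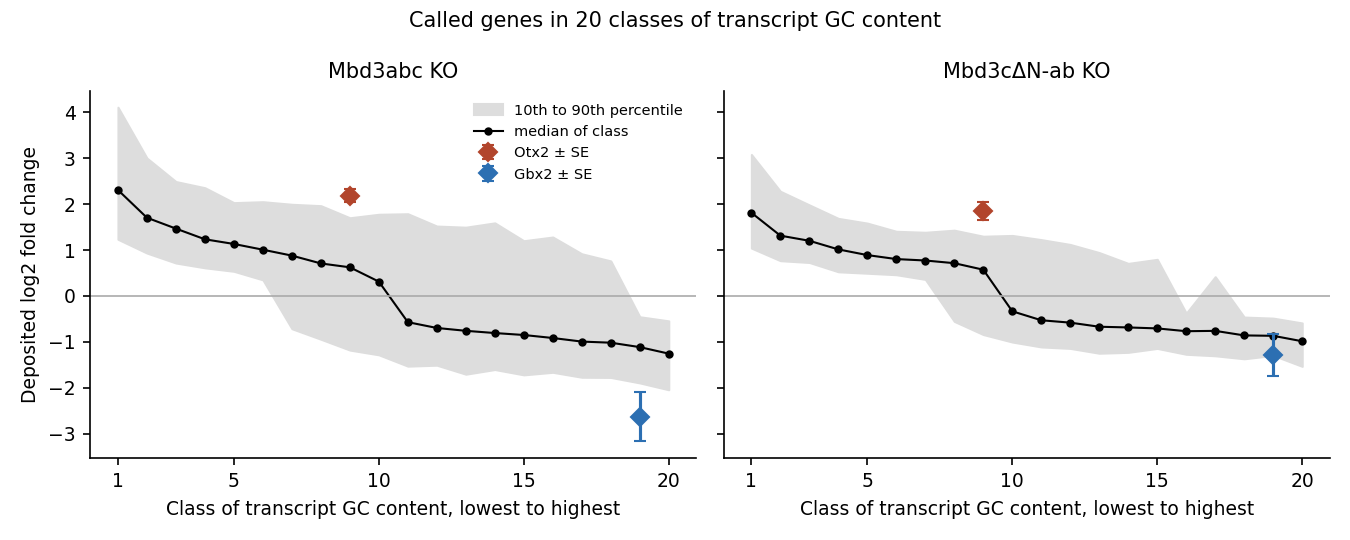
Deposited log2 fold change of called genes in 20 classes of rising transcript G and C content (line, median; band, 10th to 90th percentile) with Otx2 and Gbx2 (diamonds, ± SE) in Mbd3abc KO and Mbd3cΔN-ab KO. Class medians pass from above to below 0, and Otx2 lies above the band in both panels, Gbx2 below it in Mbd3abc KO.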

How the data were processed

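RNA-seq of 10 libraries in 5 groups was used. The submitters' processing notes name TopHat2, HOMER, DESeq2 and mm10, without versions. Exon reads were counted by HOMER with strand, per the file headers. The authors deposited 1 table of called genes per mutant: a normalized signal per library scaled to about equal totals, a mean signal, DESeq2's log2 fold change and SE, and p-values raw and adjusted; the deposited Wald score was not used.

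Values in the read columns were whole multiples of 1 step per library (100% of low values within 0.02 reads), which gave reads. In the short Mbd3ab KO table this rests on whole values and on wild type reads equal to those of the other tables. Size factors came from the deposited means. The number of genes tested (10786 to 15622) was recovered from p and adjusted p. As the columns carry no replicate number, they were assigned to groups. Refits used limma 3.58.1, edgeR 4.0.16 (quasi-likelihood) and DESeq2 1.42.0, fitted on the listed genes only. Against wild type their p-values were Benjamini-Hochberg adjusted over the number of genes tested, not over the listed genes. That number was 13201 for Mbd3ab KO, 14429 for Mbd3cΔN-ab KO and 15622 for Mbd3abc KO. Between mutants they were Benjamini-Hochberg adjusted over the genes compared. The limma contrast between mutants was tested on simulated data. G and C content came from GENCODE M21 transcripts matched by RefSeq accession (at least 99.7% of called genes matched), and the matched Otx2 transcript is 1708 bases against the deposited 2326.

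Genes named are the members, the 5 nearest to each in pattern and called members of fixed lists. The members and lists were chosen with earlier results of these data known. Some called list members are not reported here by name.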

Additional observations from a re-analysis of the deposited data

Results flagged for a closer look

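The size of the Otx2 change differed between 2 mutants set against the same wild type libraries: it was 0.89 higher on the log2 scale in Mbd3abc KO than in Mbd3ab KO (limma adjusted p 0.0235, 2 libraries each, higher in both), a contrast added after the data were seen. The other alternatives run for it, edgeR and median-ratio scaling, gave adjusted p-values of 0.0296 and 0.0348, and leaving out 1 library ended the call in 5 of 8 refits. With 2 libraries per group no single library could be examined as an outlier.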

How the results depend on the processing

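The tables list almost only called genes, so all 5 calls against wild type were fixed by the choice of the genes. DESeq2 refits left out 1 library in turn. Over these refits the log2 fold change of Otx2 ran from 1.05 to 1.49 in Mbd3ab KO, 2.11 to 2.22 in Mbd3abc KO and 1.69 to 1.99 in Mbd3cΔN-ab KO, and that of Gbx2 from -4.16 to -2.38 and from -2.62 to -0.99 in the last pair. The Otx2 call in Mbd3ab KO was lost with limma (1.32), with edgeR (1.02; 1.34 with the deposited scaling) and with DESeq2 under its own size factors (0.50), but not with DESeq2 under the deposited scaling. Size factors estimated from called genes alone center those genes on no change. Over all genes of that table, 442 calls were deposited, against 0 by limma (443 at an unadjusted p under 0.05), 32 by edgeR and 189 by DESeq2. These refits held the 443 listed genes but were adjusted over the 13201 genes tested. Gbx2 in Mbd3cΔN-ab KO (-1.29) did not pass an adjusted p of 0.01. No other tool or threshold ended a call against wild type. Between Mbd3abc KO and Mbd3cΔN-ab KO neither gene was called under any of the 7 other settings or with a library left out, over which Otx2 differed by 0.06 to 0.40 and Gbx2 by -2.56 to -0.63. Calls over all genes in that contrast numbered 259 by limma, 340 by edgeR and 696 by DESeq2. Otx2 against Mbd3ab KO ran from 0.65 to 1.12 for Mbd3abc KO, called in 3 of 8 refits, and from 0.35 to 0.82 for Mbd3cΔN-ab KO. With a minimum of 200 normalized reads 1 of the 5 genes nearest to Otx2 remained, Mapt. Fam81a, Kcnk6, Ptges and Map7d2 fell under that minimum, with means from 116 to 155 in the Mbd3ab KO table. Gbx2 itself also fell under the minimum, so no value could be given for it. At equal totals the median of all genes moved by 0.11 (log2) in Mbd3ab KO, and Otx2 was 2.73-fold higher there. At an adjusted p of 0.01 the totals over the 7 lists stayed within 1.5 times. Counts of single lists did not: lower boundary genes went from 6 to 3 in Mbd3abc KO, and boundary genes from 1 higher and 2 lower to 0 and 1 in Mbd3cΔN-ab KO. Lower posterior genes went from 2 to 1 in Mbd3cΔN-ab KO, and in Mbd3ab KO the called boundary gene and Groucho gene were lost. With matched transcript lengths the log2 ratio of Otx2 to Gbx2 in wild type was 0.21 and 0.18 in place of -0.24 and -0.27. No paired analysis was possible because the columns carry no replicate numbers. Few reads limit Gbx2 in the mutants, 13 in the lowest library.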
